A study of Mus musculus with 2 samples.

Results

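Kinesin and dynein motor genes were described in the forebrain of mouse embryos. The members were the protein-coding genes of GENCODE release M21 whose symbols begin with Kif and a digit or c, with Dync and a digit, with Dynll, Dynlr or Dynlt, or with Dctn and a digit. This rule used names and no measured values, and it found 65 genes among 55536 annotated genes, of which 22028 are protein-coding. Of the 65, 43 carry Kif symbols and 22 encode chains of dynein or of its partner dynactin. Polyadenylated RNA of the forebrain was sequenced from embryos of the B6NCrl strain, of mixed sex, at embryonic day 12.5. No genotype or treatment is named for either library. Pool 1 came from 120 embryos and pool 2 from 68 embryos, so each library averages many animals and the cells of a whole brain region. Both libraries belong to 1 group, and the labels name no contrast.

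Kinesins and dyneins are motors that hydrolyse ATP to move along microtubules. Most kinesins walk towards the plus end, which in an axon points away from the cell body, while cytoplasmic dynein walks towards the minus end and returns cargo to the cell body. A second set of kinesins works in the spindle of dividing cells, where they separate poles, align chromosomes and help to cut the daughter cells apart. The embryonic forebrain at this stage holds dividing progenitors along the ventricle and young neurons that are growing axons, so both kinds of motor are at work in the same tissue. Dynein, with dynactin and the regulator Lis1 (gene Pafah1b1), also moves the nuclei of progenitors and of migrating neurons.

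Reads assigned to genes numbered 33373843 for pool 1 and 34406648 for pool 2, and the members held 0.681% and 0.654% of them. Levels are given in TPM, an abundance per transcript length scaled to a fixed total per library. Values after ± are SDs over both pools (n = 2). The labels call the pools biological replicates. With 2 libraries and 1 group no test between conditions was possible, and an exact two-sided sign-flip test over the pools could not go below p = 0.5. All 8 forebrain transcription factors on a check list, such as Dlx1 and Lhx2, were at 20.9 TPM or more on average, while none of 6 midbrain and hindbrain markers reached 1 TPM in both pools. Markers of neural progenitors (6 of 6) and of postmitotic neurons (6 of 6) were present, as were 8 of 8 red cell genes and 6 of 6 mesenchyme genes. In bulk RNA, fewer cells of a type and less RNA per cell cannot be told apart.

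Of the 65 members, 60 (92.3%) were detected, defined as at least 1 TPM in both pools, against 58.9% of all protein-coding genes. The median of the members' mean levels was 36.5 TPM, which lies at the 79.0th percentile of protein-coding genes, whose own median was 4.08 TPM. Levels ran from 0 for Kif2b and Kif12 to 1133 ± 17.7 TPM for Dynll1. The 5 members below the detection limit were Kif2b, Kif12, Kif28, Kif17 and Kif19a. Kif2b, a depolymerase best known from testis, and Kif12 had no count in either pool. For Kif2b, 3 counts would have given 0.0659 and 0.0632 TPM in pools 1 and 2, and for Kif12 0.0789 and 0.0758 TPM. Kif28 had 0 counts in pool 1 and 1.09 estimated counts in pool 2, below its limits of 0.0573 and 0.0396 TPM. Kif17, a motor of dendritic vesicles, stood at 0.35 and 0.31 TPM on 19 and 16 counts. These limits cover counting error only.

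**Figure D1:**
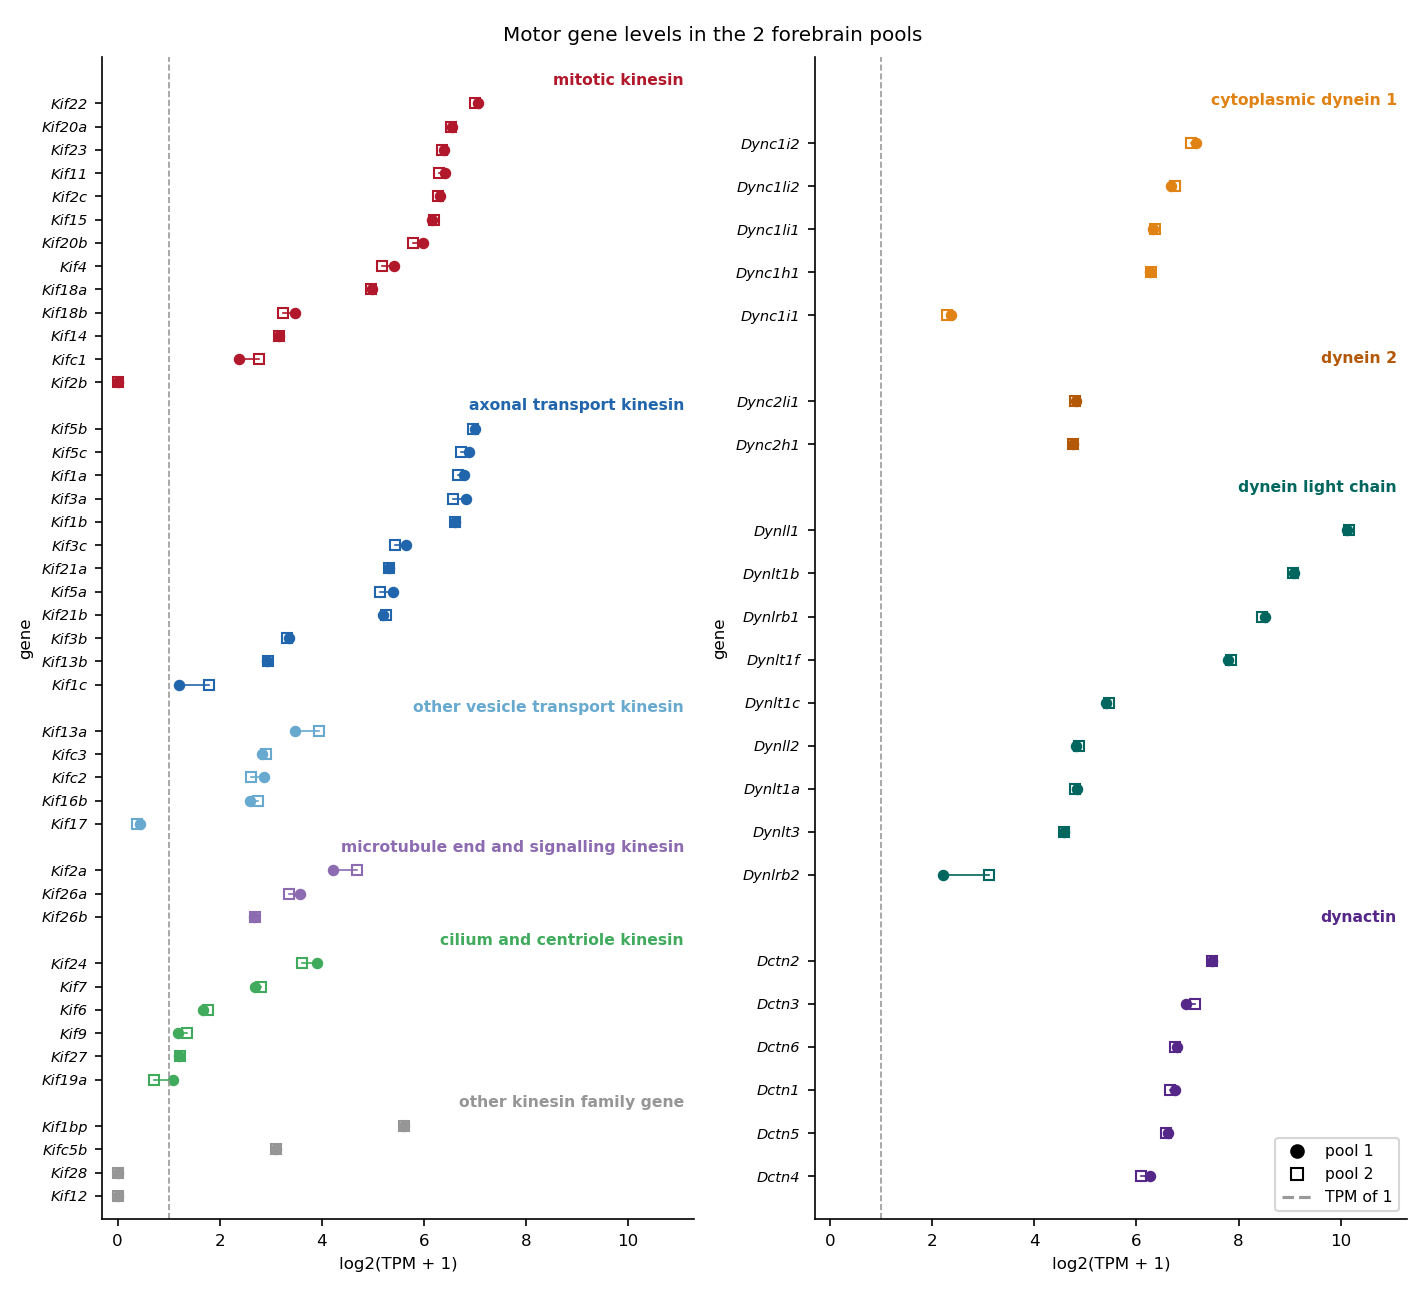
Level of each of the 65 motor genes as log2(TPM + 1) in pool 1 (filled circles) and pool 2 (open squares), grouped by role and ordered by mean level, with a dashed line at 1 TPM. The mitotic kinesins span 0 to 130 TPM and the axonal transport kinesins 1.90 to 125 TPM, while the dynein light chain Dynll1 reaches 1133 TPM.

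The mitotic kinesins numbered 13, of which 12 were detected, with a median of 58.6 TPM. The highest was Kif22, a chromokinesin that pushes chromosome arms away from the poles, at 132 and 127 TPM in pools 1 and 2 (130 ± 3.54 TPM, 94.5th percentile of protein-coding genes). Its gene lies on chromosome 7 from 127027729 to 127042471 (GRCm38, minus strand). Kif20a and Kif23 act in the spindle midzone and in cytokinesis. Kif20a stood at 92.3 and 91.6 TPM, and Kif23, the motor of the centralspindlin complex, at 83.0 and 81.5 TPM. The exons of Kif20a share 1271 bases with Cdc23 on the opposite strand, and whether the counting used strand is not given, so part of its reads may belong to Cdc23.

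Kif11, which slides spindle microtubules to separate the poles, was at 83.9 and 77.5 TPM. Kif2c, which removes tubulin from microtubule ends at centromeres, was at 79.1 and 76.3 TPM. Kif15, which helps to keep the spindle bipolar, was at 70.6 and 72.2 TPM. Over all transcripts of release M21 these 3 genes of spindle assembly and attachment therefore lay within a narrow band in both pools. In an older annotation, GENCODE M4, Kif15 averaged 39.4 TPM, against 84.25 TPM for Kif11 and 81.8 TPM for Kif2c. Over protein-coding transcripts only, Kif15 averaged 35.4 TPM, against 79.9 TPM for Kif11 and 73.1 TPM for Kif2c. Kif20b, a cytokinesis kinesin whose loss is known to give a small cortex in mice, was at 62.7 and 54.6 TPM. Kif4, a chromokinesin that also shapes the midzone, was at 41.5 and 35.5 TPM, with 832 exon bases shared with Pdzd11 on the opposite strand. Kif18a, which damps chromosome movements at the metaphase plate, was at 30.9 and 30.4 TPM.

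The remaining mitotic members were lower. Kif18b, a motor of astral microtubule ends, was at 10.2 and 8.44 TPM, and Kif14, which works with citron kinase in cytokinesis, at 7.94 and 7.95 TPM. Kifc1, the minus-end motor that focuses spindle poles, was at 4.20 and 5.81 TPM. Kifc1 has a near-identical copy on the same chromosome, Kifc5b, at 7.65 and 7.63 TPM, and reads can be split between the pair. Their summed level was 11.9 and 13.4 TPM, on summed counts of 340 and 408. In the older annotation the summed level was 6.63 and 8.75 TPM. The level of Kifc1 alone is therefore uncertain, and the summed TPM depends on the annotation. Cenpe, a kinetochore kinesin outside the naming rule, was at 35.3 and 33.7 TPM.

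The promoters of these genes are shown because many genes of the late cell cycle carry a short element near their start, the CHR (cell cycle genes homology region, letters TTTGAA, searched on both strands). Promoters were those of RefSeq on GRCm38.p6, from 250 bases before to 50 bases after each listed start, and 48 of the 65 members matched, among them 12 mitotic and 8 axonal transport kinesins. The CHR letters occurred in 10 of the 12 mitotic promoters, against 1 of 8 axonal transport genes, 20.2% of all 27025 genes with a promoter and 17.9% of all 32851 promoters. Within 50 bases of the start they occurred in 8 of 12 mitotic genes, 1 of 8 axonal transport genes (Kif1a, at the later of its 2 listed starts, 19471 bases inside the gene) and 5.72% of all genes. Of all 48 matched members 15 held the letters. They lay within 50 bases of the start in 11, among them Kif26b and Kifc5b, the copy of Kifc1. The motifs and this window were chosen after the members and the positions had been seen, so these shares are descriptions with no test. The 8 mitotic promoters with the letters near the start are printed 5′ to 3′ on the gene's strand from 60 bases before the start to 25 bases after it. The CHR letters or their reverse complement are in capitals.
Kif22 (chr7:127042396-127042480, minus strand): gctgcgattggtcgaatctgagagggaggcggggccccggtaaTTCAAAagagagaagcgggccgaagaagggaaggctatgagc
Kif23 (chr9:61946775-61946859, minus strand): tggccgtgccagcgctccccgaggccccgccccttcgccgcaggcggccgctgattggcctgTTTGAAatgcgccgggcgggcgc
Kif15 (chr9:122951021-122951105, plus strand): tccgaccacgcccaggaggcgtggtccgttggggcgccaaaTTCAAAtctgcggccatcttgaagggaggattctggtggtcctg
Kif18b (chr11:102925100-102925184, minus strand): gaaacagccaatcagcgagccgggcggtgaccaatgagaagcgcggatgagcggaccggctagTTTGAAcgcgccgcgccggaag
Kifc1 (chr17:33890609-33890693, minus strand): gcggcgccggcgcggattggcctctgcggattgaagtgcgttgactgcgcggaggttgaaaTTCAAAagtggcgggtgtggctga
Kif20b (chr19:34922298-34922382, plus strand): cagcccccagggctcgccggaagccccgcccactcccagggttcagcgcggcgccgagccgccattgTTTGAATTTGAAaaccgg
Kif11 (chr19:37376322-37376406, plus strand): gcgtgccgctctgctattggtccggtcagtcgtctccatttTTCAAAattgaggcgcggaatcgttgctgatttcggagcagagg
Kif4 (chrX:100626005-100626089, plus strand): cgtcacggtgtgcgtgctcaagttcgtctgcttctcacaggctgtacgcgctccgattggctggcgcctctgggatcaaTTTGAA

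In Kif22, Kif15 and Kif11 the motif began at positions -17, -19 and -19 and read on the opposite strand. In Kif23, Kif18b, Kif20b and Kif4 it read on the gene's strand at positions 3, 4, 8 and 20, counted from 1 at the start, and Kif20b carried a second copy at position 14. Kif22 and Kif15 also held a second copy, at positions -215 and -234. Kifc1 had it on the opposite strand at position 2. Kif2c and Kif14 held the letters at positions -103 and -228 from their listed starts, which lie 3867 and 1505 bases inside the genes as GENCODE draws them. The listed start of Kif4 lies 328 bases inside its gene, and those of the other 7 printed promoters lie within 51 bases of the GENCODE start. The CCAAT box, a short element often found with the CHR, occurred in 8 of 12 mitotic, 3 of 8 axonal transport and 41.1% of all genes. The E2F letters TTGGCGC occurred in Kif15 and Kif18a and in 2.85% of all genes. In all, 8 motifs were searched. The others were TTTAAA (5 of 48 members, among them Kif14 and Kif2c, and 14.9% of all genes), TTCGAA (1.80%), TTTCGCGC (0.374%), GGCGGGAA (2.52%) and GTGACGTC (2.14%). The last 4 occurred in none of the 12 mitotic windows, while some members outside that list held them, such as Kif5c with GTGACGTC. An absent match says only that these letters are not in this window.

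**Figure D2:**
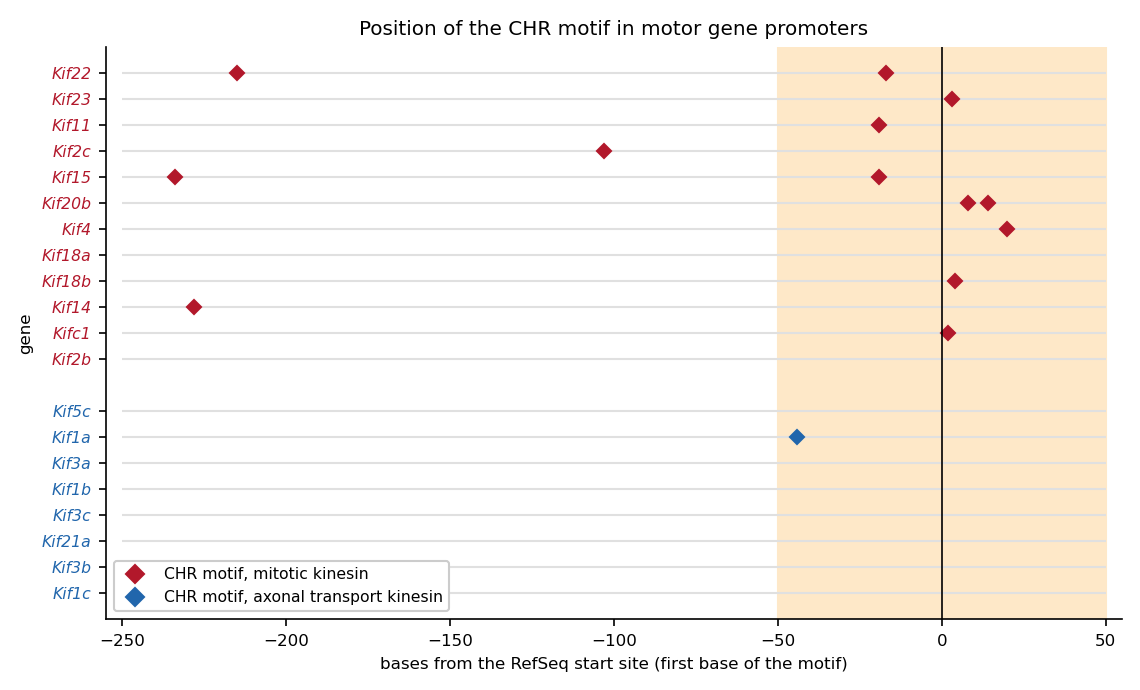
Position of the first base of each CHR motif (diamonds, either strand) relative to the RefSeq start site at 0, for the 12 mitotic (red) and 8 axonal transport (blue) kinesins with a listed promoter, ordered by level, with the 50 bases on each side of the start shaded. Motifs fall in the shaded window in 8 mitotic genes and in Kif1a.

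The axonal transport kinesins numbered 12, and all 12 were detected, with a median of 42.3 TPM. Kinesin-1, the main motor of fast transport away from the cell body, has 3 heavy chain genes. Kif5b, the form found in most cells, stood at 127 and 124 TPM. Kif5c, enriched in neurons, was at 117 and 105 TPM. Kif5a, also neuronal, was at 41.4 and 34.5 TPM. The ranges of the 3 genes over the pools did not overlap, so the order Kif5b, Kif5c, Kif5a held in both.

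The kinesin-3 motors carry precursors of synaptic vesicles. Kif1a was at 109 and 101 TPM, and Kif1b, which also carries mitochondria, at 97.1 and 96.4 TPM. Kif1c was at 1.31 and 2.48 TPM, higher in pool 2, on 170 and 311 counts. Kif1a and Kif1b were thus close, with ranges that did not overlap, and Kif1c was the lowest of the transport list. Kif13b, a kinesin-3 motor of membrane vesicles, was at 6.62 and 6.70 TPM.

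Kinesin-2 is a trimer of Kif3a with Kif3b or Kif3c and an accessory subunit, Kifap3. Kif3a stood at 113 and 93.7 TPM, Kif3c, the neuronal partner, at 49.5 and 42.3 TPM, and Kif3b, the partner in cilia and in transport, at 9.32 and 8.94 TPM. Kif3c thus exceeded Kif3b in both pools, although 2617 exon bases of Kif3c are shared with 1110002L01Rik on the opposite strand. Kifap3 was at 45.1 and 42.8 TPM. Kif21a and Kif21b, which slow microtubule growth in axons and dendrites, were at 38.7 and 38.7 TPM and at 35.7 and 37.3 TPM.

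With TPM over all transcripts of the newer annotation, the mitotic list stood above the axonal transport list, and this order did not hold under other ways of counting transcripts. The median of log2(TPM + 1) was 5.99 for mitotic and 5.53 for axonal transport kinesins in pool 1, and 5.80 and 5.37 in pool 2. The difference was therefore 0.46 in pool 1 and 0.42 in pool 2 (0.44 ± 0.03). In the older annotation, GENCODE M4, the difference was -0.05 ± 0.03. Over protein-coding transcripts only it was -0.23 ± 0.04, and over transcripts with a consensus coding sequence (CCDS) only -0.39 ± 0.05. The mean over the lists, which gives the undetected Kif2b full weight, differed by -0.32 ± 0.0024 with all transcripts. Every one of these differences had the same sign in both pools, so the sign turned on the transcripts and the summary chosen and not on the pool.

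On the TPM scale the medians were 58.6 for mitotic and 42.3 for axonal transport kinesins over all transcripts, 39.4 and 39.4 in the older annotation, 35.4 and 41.5 over protein-coding transcripts, and 29.2 and 38.3 over CCDS transcripts. Summed levels told a different order, 684 ± 20.9 TPM for the mitotic and 718 ± 38.3 TPM for the axonal transport list over all transcripts, while over CCDS transcripts the sums were 498 and 483 TPM. At least 30 TPM was reached by 9 of 13 mitotic and 9 of 12 axonal transport kinesins. The mitotic genes Kif23, Kif15 and Kif20b were each more than 1.5-fold higher in the newer annotation than in the older one. Kif23 was at 48.6 and 45.7 TPM in the older annotation, Kif15 at 40.6 and 38.3 TPM, and Kif20b at 23.8 and 22.0 TPM. Their newer levels were 1.74-fold, 1.81-fold and 2.56-fold of the older ones.

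**Figure D3:**
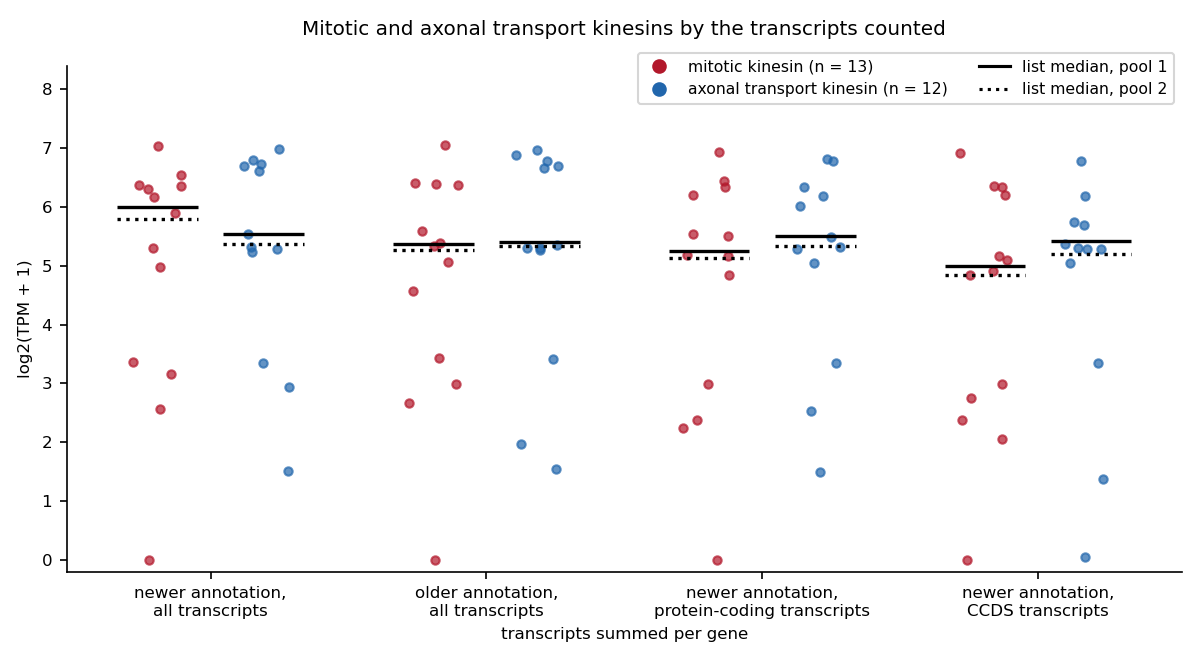
Mean log2(TPM + 1) of each mitotic kinesin (red, n = 13) and axonal transport kinesin (blue, n = 12) under 4 ways of summing transcripts, with the list medians of pool 1 (solid line) and pool 2 (dotted line). The mitotic median lies above the transport median only in the leftmost pair, by 0.46 and 0.42 in the 2 pools, and below it by 0.43 and 0.36 in the rightmost pair.

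The other kinesins were lower. Among further vesicle motors, Kif13a, a carrier of receptors from the Golgi, stood at 10.1 and 14.5 TPM. Kifc3 and Kifc2, minus-end motors, were at 6.11 and 6.47 TPM and at 6.30 and 5.13 TPM. Kif16b, which moves early endosomes, was at 5.08 and 5.71 TPM. Kif2a, a depolymerase that limits axon branches and also acts in the spindle, was at 17.7 and 24.99 TPM, higher in pool 2 and below Kif2c in both pools, with 1229 exon bases shared with Dimt1 on the opposite strand. Kif26a and Kif26b, atypical members of the kinesin family with roles in signalling, were at 10.9 and 9.24 TPM and at 5.40 and 5.50 TPM.

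The genes listed as kinesins of cilia and centrioles had a median of 1.86 TPM, the lowest of the member lists. Kif3a and Kif3b, which form a kinesin-2 that also works in cilia, were counted with axonal transport. Kif24, which holds back cilium assembly at the centriole, was at 14.0 and 11.2 TPM, and Kif7, a regulator of Hedgehog signalling at the cilium tip, at 5.45 and 6.03 TPM. Kif6 was at 2.20 and 2.41 TPM, Kif9 at 1.26 and 1.57 TPM, and Kif27 at 1.31 and 1.34 TPM. These 3 genes are known mainly from cells with motile cilia. Kif19a, which sets the length of motile cilia, was at 1.11 and 0.63 TPM, higher in pool 1, on 43 and 29 counts. Kif1bp, a kinesin-binding protein and not a motor, was at 47.9 TPM in both pools.

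Cytoplasmic dynein 1 was represented by 5 genes, all detected. Its motor chain Dync1h1 (chromosome 12, 110601452 to 110666945, plus strand) stood at 76.1 and 77.4 TPM. The light intermediate chains, which bind cargo adaptors, were at 101 and 107 TPM for Dync1li2 and at 78.9 and 81.8 TPM for Dync1li1. The intermediate chains, which link the motor to dynactin, differed far more. Dync1i2, the form of most cells, was at 142 and 134 TPM, and Dync1i1, a form known from neurons, was at 4.19 and 3.89 TPM. The mean of Dync1i2 was 34.1 times that of Dync1i1. Dynein 2 returns cargo inside cilia. Its motor chain Dync2h1, at 25.9 TPM in both pools, was lower than Dync1h1, and Dync2li1 was at 27.0 and 26.8 TPM. Both dynein 2 genes lay above Dync1i1 and below the other dynein 1 genes.

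The dynein light chains held the highest levels of all members, with Dynll1 first over all transcripts. Dynll1, the LC8 chain that also binds many proteins other than dynein, stood at 1121 and 1146 TPM, the 99.7th percentile of protein-coding genes, and its paralog Dynll2 at 27.1 and 28.4 TPM, a ratio of 40.9. Over protein-coding or CCDS transcripts Dynll1 was at 421 TPM, 15.2 times Dynll2 and below Dynlt1b at 538 TPM. Dynlrb1, the common roadblock chain, was at 367 and 350 TPM, and Dynlrb2, known from ciliated cells and testis, at 3.61 and 7.69 TPM, higher in pool 2, with a ratio of the means of 63.4. In both families, as for the intermediate chains, 1 paralog held nearly all of the family's level. Of the Tctex chains, Dynlt3 was at 22.8 and 23.0 TPM. Dynlt1 exists as 4 near-identical copies on chromosome 17 between 6306340 and 6655900, among which the counting can split reads. They were listed at 541 and 535 TPM for Dynlt1b, 221 and 230 TPM for Dynlt1f, 41.5 and 43.1 TPM for Dynlt1c, and 27.7 and 27.0 TPM for Dynlt1a. Their summed level was 831 and 834 TPM. Only the summed counts, 14637 and 15232, are free of how reads were split among the copies, since TPM also depends on the length of the transcript a read is given to. In the newer annotation Dynlt1a and Dynlt1c stood at 0.281 and 0.516 of their levels in the older one, where the sum was 889 and 895 TPM.

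Dynactin, the complex that dynein needs to move cargo over long distances, had all 6 subunit genes of the naming rule detected. Dctn2, a subunit of the shoulder that joins arm and filament, stood at 178 and 177 TPM, Dctn3, also of the shoulder, at 124 and 140 TPM, and Dctn1, the arm subunit that binds microtubules, at 107 and 101 TPM. The subunits of the filament's pointed end were at 110 and 107 TPM for Dctn6, 97.2 and 95.1 TPM for Dctn5, and 76.1 and 66.6 TPM for Dctn4. From the lowest to the highest mean the 6 genes spanned 71.3 to 178 TPM, against 4.04 to 138 TPM for the 5 dynein 1 genes. This narrow span holds over all transcripts only, since over protein-coding transcripts Dctn6 was at 16.3 TPM and over CCDS transcripts at 13.7 TPM, against 164 TPM for Dctn2 in both, a ratio of 10.1 and 12.0. Dctn2 and Kif5a are neighbours on chromosome 10, read away from each other from starts 3020 bases apart at 127266368 and 127263348 (GRCm38).

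Partners of the motors without these symbols were described from lists of 41 further genes, of which 40 were detected. All 5 kinesin light chain and accessory genes were detected, with a median of 35.9 TPM, led by Klc1 at 236 and 241 TPM. The dynactin filament genes (6 of 6) had a median of 190 TPM, led by Capzb, a capping protein, at 240 and 244 TPM. The 4 dynein regulators had a median of 92.7 TPM, led by Nudc at 307 and 318 TPM and Nde1 at 127 and 126 TPM, with Pafah1b1, the Lis1 gene, at 59.7 and 58.6 TPM and Ndel1 lowest at 45.5 and 48.0 TPM. Cargo adaptors (12 of 13) had a median of 30.5 TPM, with the scaffold genes Mapk8ip1 at 65.0 and 65.4 TPM and Mapk8ip3 at 61.0 and 59.9 TPM at the top and Rilp at 0.17 and 0.27 TPM as the undetected one. The 3 dynein 2 chains under other symbols lay between 16.4 and 33.1 TPM. The 10 spindle and midzone partners, such as Birc5 at 229 and 221 TPM, had a median of 129 TPM, above the 58.6 TPM of the mitotic kinesins.

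Within 14 families of paralogs, every pair of neighbours in the order of level was apart in the sense that the ranges over the pools did not overlap. The order of the mean levels was the same in the older annotation and over protein-coding transcripts in 14 of 14 families, and over CCDS transcripts in 12 of 14. The exceptions over CCDS transcripts were Kif5, where Kif5c stood above Kif5b, and Kif1, where Kif1b stood above Kif1a. The first-to-second ratios in these families were small with all transcripts, 1.13 for Kif5b over Kif5c and 1.09 for Kif1a over Kif1b. The ranges of Kif5b and Kif5c overlapped in the older annotation, at 127 and 121 TPM against 123 and 111 TPM. Over protein-coding transcripts they overlapped too, at 114.68 and 108.92 TPM against 115.60 and 103.04 TPM, so that Kif5c led in pool 1. For Dync1i, Dynll and Dynlrb, with ratios of 34.1, 40.9 and 63.4, the order was the same under each of these ways of counting, while the ratios ran from 34.1 to 52.4, 15.2 to 40.9 and 58.8 to 66.0.

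Several motor genes drew much of their TPM from short or non-coding transcripts, which weigh heavily because TPM is per length. The transcript of highest TPM was not protein-coding in 8 of the 60 detected members (13.3%), against 8.83% of detected protein-coding genes, and in 5 of 60, against 5.24%, when estimated counts were used in place of TPM. The 8 were Dctn6, Dynll1, Dynlt1a, Dynlt1c, Kif3a, Kif6, Kifc2 and Kifc5b. Less than 50% of TPM came from CCDS transcripts in 16 of 60 members (26.7%), against 25.5% of detected protein-coding genes. The first share lay somewhat above its background and the second close to it. Transcript shares are estimates of the authors' model, whose depth per transcript is unknown beyond the estimated counts.

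In Dctn6 a retained-intron transcript of 769 bases held 62.6 and 58.9 TPM, and CCDS transcripts only 13.0 and 14.5 TPM. The exons of Dctn6 share 337 bases with Gm26768 on the opposite strand. In Dynll1 the coding transcript of 729 bases, for a protein of 89 residues, held 343 and 374 TPM, and a non-coding transcript of 539 bases held 477 and 463 TPM. In Dync1h1 the full coding transcript of 14342 bases held 40.6 and 35.8 TPM, and a retained-intron fragment of 427 bases held 25.7 and 30.5 TPM. The full transcript took 97.3% of the counts of Dync1h1 and the fragment 1.66%, so counts and TPM rank them very differently. In Kif3a a short transcript marked for nonsense-mediated decay held 38.3 and 28.0 TPM, above the coding transcript of 3161 bases at 26.3 and 24.7 TPM.

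Axonal kinesins differed in how their coding forms were divided. Kif1b, known for a long and a short protein that share the motor domain, had its long form of 1816 residues at 51.8 and 44.5 TPM and its short form of 1150 residues at 24.3 and 23.6 TPM. Their shares of the TPM of Kif1b were 49.7% ± 5.1 and 24.8% ± 0.37. In Kif1a the transcript of highest TPM was a fragment of 528 bases at 37.9 and 39.8 TPM, which took 5.19% of the counts, while the transcript for 1697 residues was at 29.2 and 23.2 TPM and took 65.4%. In Kif5b the CCDS transcript for 963 residues held 50.3 and 51.7 TPM, and a coding transcript of 2006 bases with no CCDS held 64.4 and 57.3 TPM. Kif5a, Kif3b, Kif21a and Kif5c drew nearly all of their TPM from CCDS transcripts. Kif21a divided it over 3 forms with 48.9% ± 2.3, 31.6% ± 2.5 and 17.7% ± 1.5. In Kif13b the form of 1847 residues, which took 80.7% of the counts, carries no CCDS mark, so that over CCDS transcripts the gene was at 0.06 and 0.00 TPM.

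Among dynein 1 and dynactin genes, Dync1i2 split over a coding transcript for 632 residues (62.7 and 63.6 TPM) and others for 612 residues. The latter included transcripts at 45.5 and 43.6 TPM and at 18.9 and 10.8 TPM. Dctn1 split over forms of 1239 residues (53.4 and 54.2 TPM) and 1264 residues (33.2 and 26.2 TPM). Taken singly, the transcript for the larger form led in both pools for Dync1i2, and that for the smaller form for Dctn1. Together, the listed transcripts for 612 residues exceeded the one for 632 residues in pool 1 but not in pool 2. Of the mitotic genes, Kif20b had only 6.77 and 4.81 TPM on its CCDS transcript, and a fragment of 740 bases held 23.9 and 22.5 TPM. By counts, 54.7% of Kif20b went to a full-length coding transcript of 1734 residues with no CCDS. Kif23 had 34.8 and 31.6 TPM on its CCDS transcript and Kif15 30.8 and 27.7 TPM. These single transcripts lay below the levels of the same genes in the older annotation. Those older levels sum all transcripts of a gene, so a part is set against a whole.

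**Figure D4:**
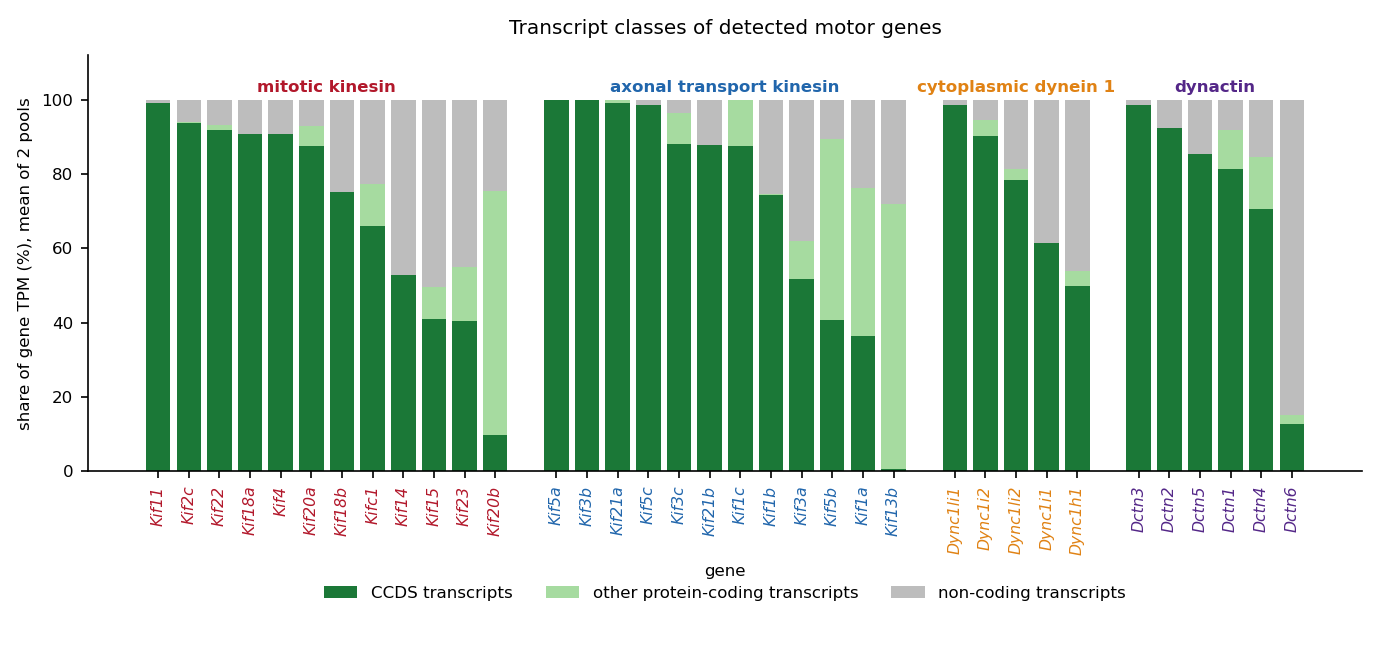
Share of each detected gene's TPM (percent, mean of both pools) held by CCDS transcripts, other protein-coding transcripts and non-coding transcripts (retained introns, decay targets and processed transcripts), for the mitotic kinesins, axonal transport kinesins, dynein 1 and dynactin genes. Kif20b, Kif13b and Dctn6 stand out with the smallest CCDS shares, while Kif5a, Kif3b, Kif21a, Kif11 and Dctn3 are almost wholly CCDS.

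Between annotations, 7 of the 60 detected members (11.7%) moved more than 1.5-fold, against 6.29% of detected protein-coding genes. Beside Kif23, Kif15 and Kif20b these were Kif13b and Kifc5b, at 2.28 and 3.34 times their older levels, and the copies Dynlt1a and Dynlt1c, which were lower in the newer one. The median ratio of newer to older level was 0.96 over members and 0.95 over all detected protein-coding genes. The other members lay within 1.5-fold but not all near that median, with Kif13a at 1.42 times, Dync1i1 at 1.31 times and Kif3c at 1.19 times the older level. All other dynein and dynactin genes and all detected kinesins of cilia lay within 1.5-fold.

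Most motor genes were close in the 2 pools, and how many stood apart depended on the scale. Of 62 members whose counts averaged 10 or more over the pools, 3 were more than 25% higher in one pool than in the other, against 23.5% of 19063 genes and 16.1% of 14805 protein-coding genes. These were Kif1c (log2 ratio of normalised counts, pool 1 over pool 2, -0.79), Dynlrb2 (-1.05) and Kif19a (0.63). Dynlrb2 rested on 32 and 71 counts and Kif19a on 43 and 29, so these are low-count genes, while Kif1c had 170 and 311 counts. From log2(TPM + 1) there were 6, with Kif13a, Kif2a and Kifc1 added, against 13.3% of all genes and 10.2% of protein-coding genes. Under spike-in totals there were 7, against 30.1% of all genes. With 1 library per pool these differences have no replicate check.

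With TMM-normalised counts 44 of the 62 members (71.0%) were higher in pool 1, against 49.4% of all genes and 7909 of 14805 protein-coding genes. Under spike-in totals, which move the median of all genes from -0.00 to -0.17, 14 of 62 (22.6%) were, against 17.6% of all genes. The median log2 ratio was 0.07 for mitotic kinesins (11 of 12 higher in pool 1) and 0.14 for axonal transport kinesins (10 of 12), and under spike-in totals it was -0.09 and -0.03. Both scalings move every gene alike, so the offset of each list from the median of all genes, 0.08 for mitotic and 0.14 for axonal transport kinesins, is the same under both by construction. From log2(TPM + 1) the offsets were 0.06 and 0.07. The 10 spindle partners, all higher in pool 1 with TMM scaling, had a median of 0.10. The neuron markers had a median of 0.15, with 4 of 6 higher in pool 1 and a range of -0.15 to 0.22. The progenitor markers had a median of 0.02, with 5 of 6 higher in pool 1 and a range of -0.02 to 0.27. Red cell and mesenchyme genes were shifted towards pool 2. The 8 red cell genes were all higher in pool 2, with summed levels of 12199 and 16353 TPM in pools 1 and 2, and the 6 mesenchyme genes as well, with 588 and 712 TPM. Regional markers of the forebrain also differed, with Dlx1 (0.52) and Dlx2 (0.66) of the ventral telencephalon higher in pool 1 and Emx1 (-0.31) and Lhx2 (-0.20) higher in pool 2. Dlx2 and Emx1 were chosen after their values were seen. The part of these other genes in the shift of the motor genes was not tested. The pools also differ in their number of embryos, and pool and library cannot be told apart.

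**Figure D5:**
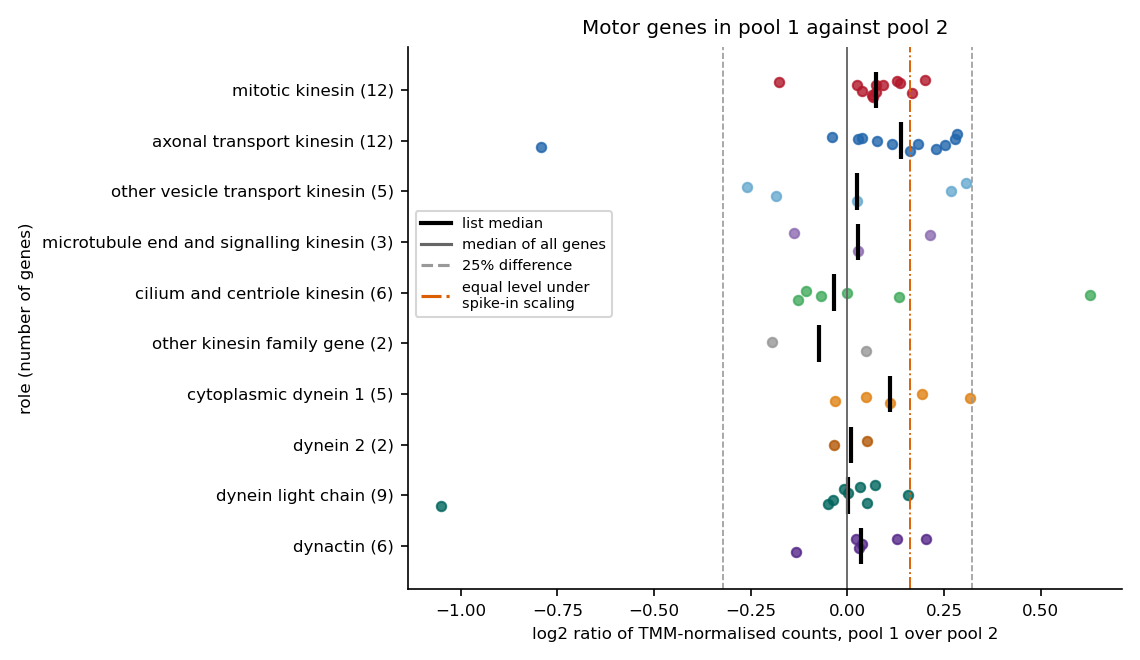
Log2 ratio of TMM-normalised counts, pool 1 over pool 2, for the 62 motor genes whose counts averaged 10 or more (points, scattered vertically within a role), with the median of each role (black bar), the median of all genes (grey line), the limits of a 25% difference (dashed) and the position that would mean an equal level under spike-in scaling (orange). Most points lie between the dashed lines, and Dynlrb2 at -1.05, Kif1c at -0.79 and Kif19a at 0.63 lie outside.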

How the data were processed

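Polyadenylated RNA of 2 forebrain pools, with 10 ng of RNA per library, was primed with oligo-dT, amplified with the SMARTer low-input kit and tagmented, with synthetic ERCC spike-in RNAs, per the labels' protocols. Amplification of full-length cDNA by PCR without molecular identifiers means that counts are not independent molecules. Of the tables that the authors deposited, 8 were used, for genes and for transcripts under GENCODE M4 and M21 per the deposited notes and file headers. The expected counts deposited by the authors are raw estimates of the reads of each gene or transcript, with ambiguous reads divided among their matches. The TPM values deposited by the authors sum to 1e+06 per library, and their deposited FPKM values are per kilobase and per 1e+06 reads. A posterior mean of TPM, also deposited, was treated as a score and used as an alternative. No label or header names the aligner, the quantifier or the use of strand, which are therefore not given in these sources.

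The 55536 identifiers were matched to the M21 annotation of GRCm38. Levels between genes were compared in TPM, with a pseudocount of 1 on the log2 scale. Members and lists were chosen with earlier results of these data known. Every member may be named, and of other lists the highest 2, the lowest and partners of named genes. Expected counts were rounded for edgeR 4.0.16 (TMM, prior count of 1, counts averaging at least 10) and DESeq2 1.42.0, which gave normalised ratios but no test, since there is 1 library per pool. The ratio calculation was tested on simulated data. R 4.3.3, Python 3.11.15, numpy 2.4.6, pandas 2.3.3, scipy 1.17.1 and matplotlib 3.10.9 were used. Spike-ins took 1240711 and 1167338 counts, and numbered entries that name no gene (5.74e-05% and 9.00e-05% of counts) were left out. Protein sequences were not used here.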

Additional observations from a re-analysis of the deposited data

How the results depend on the processing

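The difference between mitotic and axonal transport kinesins changed sign in the older annotation (-0.049), over protein-coding transcripts (-0.23), over CCDS transcripts (-0.39) and with the mean in place of the median (-0.32). It was 0.58 with 1 mitotic member below the median left out, whether Kif2b (the only such member under 1 TPM) or Kifc1, which shifts the median alike. FPKM, posterior means, a pseudocount of 0.1 and the neuron-enriched transport list gave 0.44 to 0.45, and leaving out a pool 0.42 to 0.46. The alternatives with CCDS transcripts and without Kifc1 were chosen after seeing the data. The cause of these moves was not tested.

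The median level of members was 37.7 TPM in the older annotation, 27.7 over protein-coding transcripts, 27.1 over CCDS transcripts, 22.5 in FPKM, and 34.5 to 35.7 in single pools. Of 60 members' levels, 38 moved by more than the spread between pools in the older annotation (21 higher, 17 lower), 41 over protein-coding and 47 over CCDS transcripts (all lower, since fewer transcripts are summed), 58 in FPKM (all lower, another scale) and 23 with posterior means (4 higher, 19 lower). This spread was the SD over 2 pools and near 0 for some members, such as 0.00707 TPM for Kif14, so small changes counted. In the older annotation a general shift counted too, since the median newer-to-older ratio was 0.95 over all detected protein-coding genes. Detected members numbered 53 at a limit of 5 TPM and 56 to 61 under the other settings. The pool medians of mitotic and axonal transport kinesins changed sign under spike-in totals (-0.090 and -0.026) and were 0.042 and 0.11 with library totals and 0.039 and 0.044 from TPM. Members past a 25% difference numbered 6 from TPM and 7 under spike-in totals. Transcript shares by counts gave 5 non-coding main transcripts. No paired analysis was possible because there is 1 group. Depth limits Kif28, Kif17, Kif19a and Dynlrb2, with at most 71 counts in a pool.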

Other observations

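Genes with matching symbols that are not protein-coding stayed outside the members. Dynlt1-ps1, a processed pseudogene of the Tctex light chain on chromosome 6, was listed at 104 and 103 TPM on 536 and 556 estimated counts. Whether it shares reads with the Dynlt1 copies was not tested. Kif16bos, an antisense gene of Kif16b on chromosome 2, had 4 and 3 counts (0.48 and 0.34 TPM). The pseudogenes Kif22-ps, Kif4-ps and Kifc5c-ps had 0 counts in both pools.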
